A study of Mus musculus with 21 samples.

Results

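Nuclear-encoded oxidative phosphorylation genes were examined in ribosome-bound and total RNA of mouse embryos at embryonic day 14.5. Members were all rows whose symbol begins with Nduf followed by a, b, c, s or v, with Uqcr, with Cox4 to Cox8 or with Atp5, together with Sdha, Sdhb, Sdhc and Sdhd. Of 92 rows that matched, Atp5s and Atp5sl were left out, which gave 90 members among 23827 rows, 20917 of them mRNAs. No symbol was repeated. The rule uses gene symbols only, though it was set with earlier results of these data known. Complex I holds 43 members, complex II 4, complex III 8, complex IV 20 and complex V 15. Of these, 81 are subunits, and 9 are not counted as subunits here: the assembly factors Ndufaf1 to Ndufaf7, the supercomplex factor Cox7a2l and Ndufa4l2.

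Oxidative phosphorylation takes place in the inner mitochondrial membrane. Complexes I and II pass electrons from NADH and succinate to ubiquinone, complex III passes them to cytochrome c, and complex IV reduces oxygen. The proton gradient that complexes I, III and IV build drives ATP synthesis by complex V. A few core subunits are made inside the mitochondrion, but most subunits, and all of complex II, are encoded in the nucleus, translated on cytosolic ribosomes and imported. Many of these mRNAs are short, because the accessory subunits are small proteins. Several complex IV subunits come as pairs of genes for a widely used and a tissue-restricted form.

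All 7 groups of 3 libraries carried Gt(ROSA)26Sor-mCherry-Rpl10a+/-, a ribosomal protein tagged with mCherry that is made only where Cre is active, so that ribosomes of chosen cells can be precipitated with their mRNA. With Sox2Cre+/-, active in the epiblast and thus in the embryo proper, both the transcriptome (total RNA) and the translatome (ribosome-bound RNA) of forebrain and kidney were sequenced. With Cdh5CreERT2+/-, induced by tamoxifen in endothelial cells (EC), the translatome was taken from forebrain and from kidney. With Emx1Cre+/-, active in the dorsal telencephalic lineage, it was taken from forebrain. Each forebrain library of Sox2Cre embryos pooled 2 brains, each kidney library of these embryos 4 kidneys and each kidney EC library 6. A transcriptome and a translatome library with the same number came from the same tissue. Brain and kidney EC libraries of the same number also deviated together, though the labels state no shared tissue.

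Between 21760652 and 79231692 reads were counted per library. The 10 endothelial markers fixed for the check were higher in both EC groups than in the organ translatome (10 of 10 in each) and lower in the Emx1 group (10 of 10). Their summed RPKM was 189 to 211 in the brain translatome and 3408 to 3578 in the brain EC libraries, and 423 to 452 against 2250 to 2680 in the kidney. Neural markers summed to 425 to 540 RPKM in brain EC libraries, against 2398 to 2421 in the brain translatome, so neural mRNA was still counted there. In kidney EC libraries the 8 markers of kidney epithelium and nephron progenitors summed to 70.5 to 90.8 RPKM, against 398 to 429 in the kidney translatome. The 4 markers of kidney stroma summed to 117 to 173 RPKM in kidney EC libraries, against 299 to 400 in the kidney translatome. Brain EC, kidney EC and Emx1 libraries were each sequenced in a run of their own, and forebrain and kidney libraries shared no run in either fraction. The run and the group cannot be told apart in those comparisons. Transcriptome and translatome shared 1 run in each organ. In these bulk samples, fewer cells of a type and less RNA per cell cannot be told apart.

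The members are abundant genes. RPKM, read counts scaled by gene length and by library size, puts genes of different length on one scale. Of the members, 83 reached a mean of at least 5 RPKM in some group, 69 had at least 10 RPKM in every group, and 5 stayed under 1 RPKM in every group. In the brain transcriptome the highest levels were those of Atp5b, the catalytic beta subunit of ATP synthase (496 RPKM), its partner alpha subunit Atp5a1 (320.0 RPKM) and the complex IV subunit Cox4i1 (300.4 RPKM). In the brain translatome Cox4i1 came first at 699.5 RPKM, followed by the short ATP synthase subunits Atp5e (607 RPKM) and Atp5g3 (581 RPKM). The kidney transcriptome was led by Atp5b (746 RPKM), Atp5a1 (533 RPKM) and Atp5g3 (447 RPKM), and the kidney translatome by Atp5g3 (724 RPKM), Atp5e (582 RPKM) and Cox4i1 (544 RPKM). Thus the long mRNAs of the catalytic head led in total RNA and short mRNAs led on ribosomes in both organs. A level of 100 RPKM was reached by 21 members in the brain transcriptome and 49 in the brain translatome, against 30 and 47 in the kidney.

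The members together took 0.643% ± 0.0367 (SD, n = 3) of all mRNA reads in the brain transcriptome, with 0.612%, 0.684% and 0.635% in the 3 libraries. The brain translatome held 1.17%, 1.11% and 1.12%, or 1.13% ± 0.0312 (SD, n = 3), and no library of one group reached the other. In the kidney the transcriptome held 0.849%, 0.891% and 0.892% and the translatome 1.04%, 1.12% and 1.12%, again without overlap. The Emx1 share was 1.09% ± 0.0152, the brain EC share 0.872% ± 0.0276 and the kidney EC share 1.04% ± 0.0529 (SD, n = 3 each). The complexes did not move alike. Complex IV subunits took 0.0831% of mRNA reads in the brain transcriptome and 0.214% in the brain translatome, and complex I subunits 0.165% and 0.332%. As a ratio the step of complex IV was the widest of the 5 complexes, and in percentage points that of complex I. Complex V took 0.262% and 0.380% in the brain, and 0.397% ± 0.0098 and 0.396% ± 0.0217 in the kidney transcriptome and translatome, which differed by less than the spread between libraries.

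**Figure D1:**
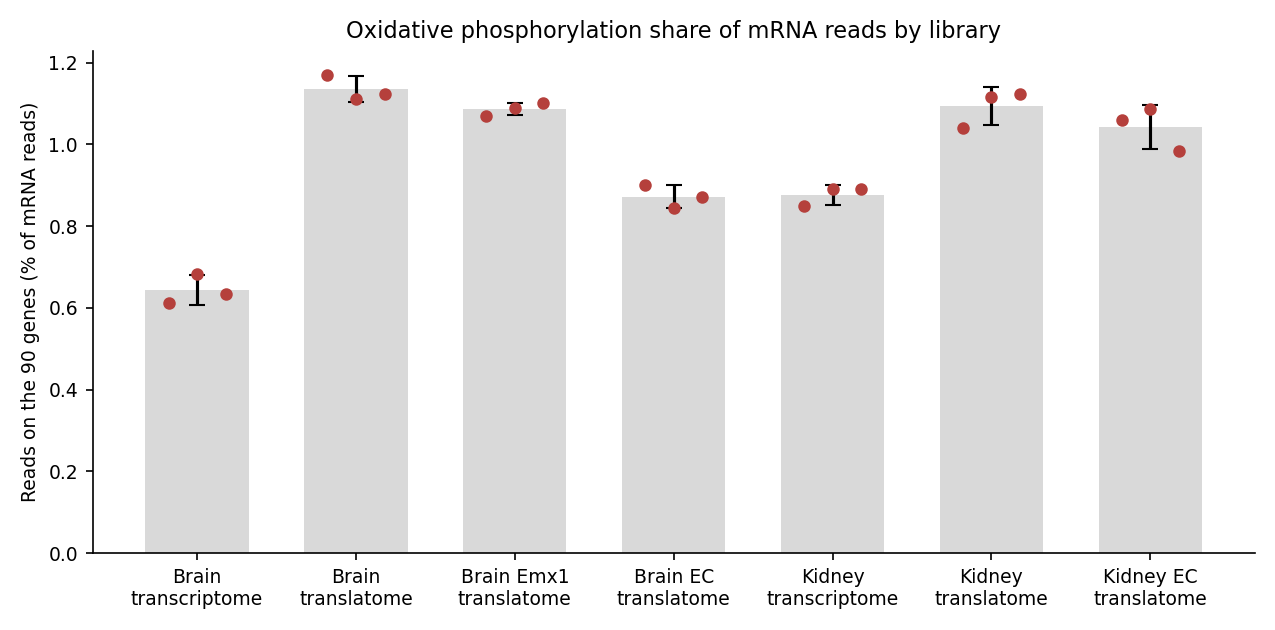
Percent of all mRNA reads counted on the 90 members (y axis) in the 7 groups; points are the 3 libraries, bars the means and whiskers the SD. The brain transcriptome is lowest (0.612% to 0.684%) and the brain translatome highest (1.11% to 1.17%).

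The first question was which members are over-represented on ribosomes. In the forebrain 73 of 87 tested members were higher in the translatome than in the transcriptome and 0 were lower (edgeR quasi-likelihood test, Benjamini-Hochberg adjusted p under 0.001; 2 lower at an unadjusted p under 0.05 and 0 by DESeq2), against 18.6% higher and 18.5% lower of all rows tested. The members' median log2 fold change was 1.20, beside -0.01 over all rows. Ndufa1, a small complex I subunit needed for assembly of the membrane arm, had 46.1, 54.5 and 51.2 RPKM in the transcriptome and 175, 149 and 156 RPKM in the translatome (log2 fold change 1.69 ± 0.08, SE, edgeR adjusted p = 6.2e-10). Atp5k, the shortest expressed member at 294 bases, had 68.0, 81.9 and 69.8 RPKM against 272, 229 and 242 RPKM, the steepest rise of the set (1.79 ± 0.09, SE, edgeR adjusted p = 7.4e-10). The complex III subunit Uqcr11 rose by the same amount as Ndufa1 (1.69 ± 0.09, SE). In all of these genes the groups lay far apart. At the other end stood Ndufs1, the large iron-sulfur subunit of complex I, with 39.1, 39.8 and 37.7 RPKM in the transcriptome and 37.2, 34.9 and 31.7 RPKM in the translatome (log2 fold change -0.14 ± 0.06, SE, edgeR adjusted p = 0.056). The flavoprotein subunit of complex II, Sdha, was close to zero at 0.02 ± 0.06 (SE).

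In the kidney 59 of 88 tested members were higher in the translatome and 7 were lower, against 14.9% and 15.8% of all rows tested. The members' median was 0.71 on the log2 scale. Ndufc1, a small complex I subunit, led complex I with 49.7, 54.7 and 56.4 RPKM in the transcriptome and 126, 135 and 136 RPKM in the translatome (1.31 ± 0.07, SE, edgeR adjusted p = 1.5e-07). Atp5e rose by 1.34 and the complex III subunit Uqcr10 by 1.26 on the log2 scale. The 7 members that fell are large catalytic or scaffold subunits: Ndufs1 (log2 fold change -0.49), Ndufv1 (-0.42), Atp5b (-0.48), Atp5a1 (-0.40), the complex III core proteins Uqcrc1 (-0.35) and Uqcrc2 (-0.32), and Sdha (-0.24). Atp5b had 731, 759 and 746 RPKM in the kidney transcriptome and 527, 541 and 529 RPKM in the translatome. The 2 groups of Atp5b did not overlap in the kidney, whereas in the brain they did, at 486, 521 and 483 RPKM against 552, 509 and 480 RPKM. With the tissue sample as a block in the fit, 11 members were lower in the kidney. The 8 red cell markers summed to 356 to 669 RPKM in the kidney transcriptome and 92.9 to 175 RPKM in its translatome, with 5 of 7 tested lower. In the brain they summed to 187 to 430 and 99.1 to 192 RPKM, with 4 of 7 lower, and their part in these differences was not tested.

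Length went closely with these values. Across the 83 members with at least 5 RPKM in some group, counted length and log2 fold change were related with Spearman's rho at -0.82 (brain) and -0.81 (kidney). Genes are not independent replicates, all points share the same libraries, and no test was made. In the brain 42 of 46 members under 700 bases were higher (median log2 fold change 1.43), 26 of 28 between 700 and 1500 bases (0.82) and 5 of 13 over 1500 bases (0.21). In the kidney the counts were 41 of 47 (median 1.00), 14 of 28 (0.46) and 4 of 13 (-0.24), and all 7 members that fell were over 1500 bases long. Core subunits, which carry out the catalysis, had medians of 0.80 in the brain and 0.14 in the kidney, and the mostly shorter accessory subunits 1.38 and 0.88. Ndufs4, a complex I subunit whose loss causes Leigh-like disease in mice, was counted over 1546 bases and rose by 1.15 in the brain and 0.82 in the kidney, above most members of its length. Ndufa11 rose by 1.15 and 0.74 and the assembly factor Ndufaf5 by 0.98 and 0.49. The files count these over 2682 and 2754 bases, but the transcripts matched to them here have 545 and 1166 bases. Counted and matched transcript lengths also differed for other members, such as Uqcrq (503 and 1521 bases), Sdhc (1189 and 3171) and Ndufab1 (806 and 3479). The place of such genes in the order of length is uncertain.

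**Figure D2:**
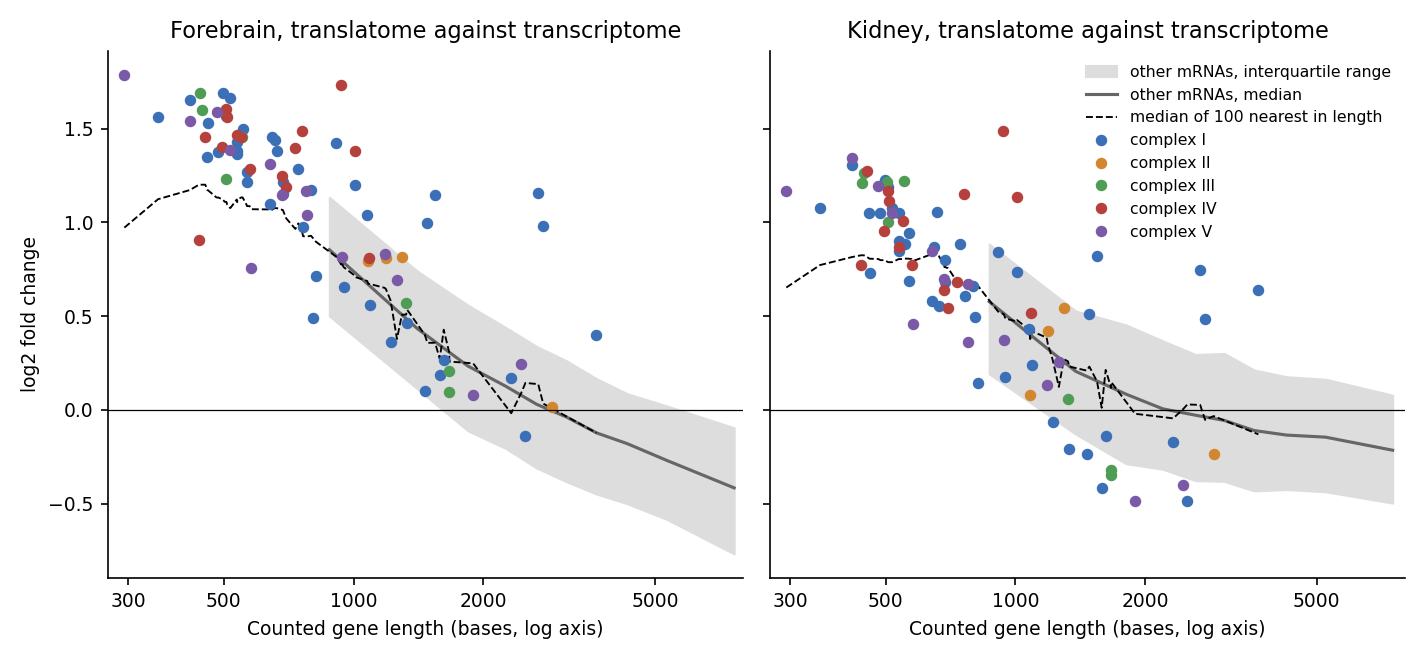
log2 fold change of translatome against transcriptome (y axis) by counted gene length in bases (log x axis) in forebrain and kidney; points are members coloured by complex, the grey line and band the median and interquartile range of other mRNAs in length groups, and the dashed line the median of the 100 other mRNAs nearest in length to each member. Short members lie highest in both organs (medians of 1.43 and 1.00 under 700 bases), and the dashed line rises towards them too.

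Other mRNAs of like length were therefore set beside the members. When mRNAs with a mean over 1 RPKM in the reference were put in 10 groups of equal number by length, the members lay a median of 0.42 log2 units above the median of their own length group in the brain and 0.22 in the kidney. However, 63 of 85 members fell in the shortest group, and most of these were shorter than its median of 879 bases. Compared with the 100 other mRNAs nearest in length to each member, a comparison added after the data were seen, the median difference was 0.25 in the brain, with 68 members above and 17 below, and 0.045 in the kidney, with 49 above and 36 below. The nearest mRNAs themselves had a median log2 fold change of 1.02 in the brain and 0.75 in the kidney. Thus in the brain most of the members' rise, and in the kidney nearly all of it, was also seen in other mRNAs of the same length. Of the other mRNAs in the 3 shortest length groups, 54.6% were higher in the brain translatome and 35.7% in the kidney translatome. Those groups reach beyond the length of most members. Of the 100 mRNAs nearest in length to each member, a median of 73% were higher in the brain and 58% in the kidney. The members called higher were 73 of 87 in the brain and 59 of 88 in the kidney.

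**Figure D3:**
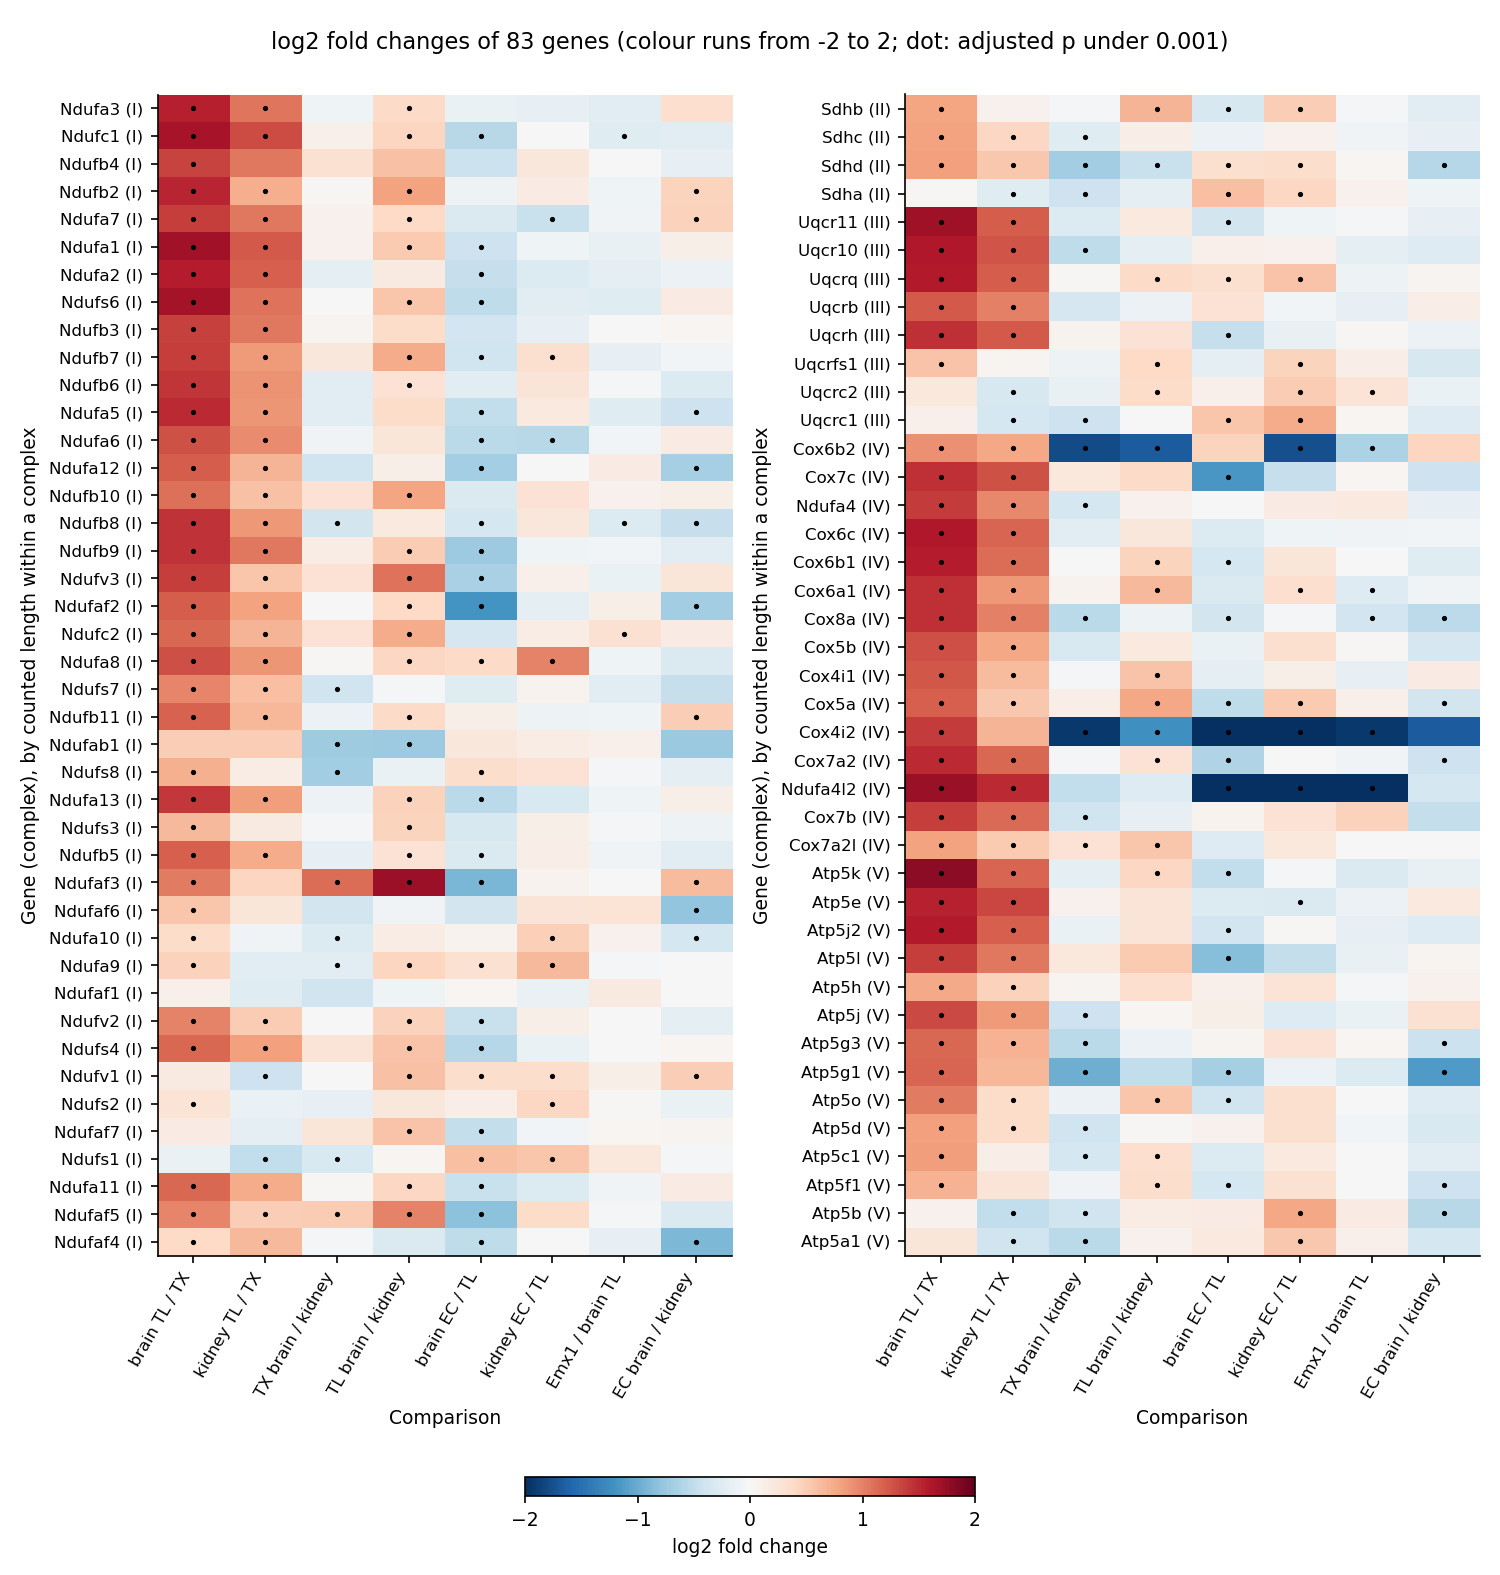
log2 fold change (colour, from -2 to 2, with values beyond at the end colours) of the 83 members with at least 5 RPKM in some group (rows, by complex and then by length, Ndufa4l2 being placed with complex IV) in 8 comparisons (columns; TL is translatome and TX transcriptome); a dot marks an adjusted p under 0.001. The first 2 columns are red in most rows, with medians of 1.20 and 0.71 over all members tested, and the rows of Cox4i2, Cox6b2 and Ndufa4l2 hold the darkest blue.

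Whether ribosome association differed between the organs was tested as an interaction in one fit of the 12 Sox2Cre libraries. For 24 of 88 members the translatome to transcriptome ratio was higher in the forebrain and for 0 in the kidney by edgeR, against 2.35% and 4.12% of all rows tested. By DESeq2 0 were higher in the kidney, and at an unadjusted p under 0.05 it was 1. The members' median difference was 0.43 log2 units, 0.15 above the mRNAs nearest in length (65 above, 20 below). Ndufv3, an accessory subunit of the NADH-binding module, differed most: it rose by 1.38 in the brain and 0.56 in the kidney, a difference of 0.81 ± 0.08 (SE, edgeR adjusted p = 4.4e-06). Its RPKM depends on how the files weight its isoforms, which differ in length. Sdhb, the iron-sulfur subunit of complex II, rose from 101, 116 and 105 RPKM to 183, 186 and 178 RPKM in the brain, and had 118, 129 and 125 RPKM against 123, 134 and 137 RPKM in the kidney, where the groups overlapped (difference 0.70 ± 0.07, SE, edgeR adjusted p = 1.1e-05). Among the ATP synthase subunits the difference was 0.68 for Atp5c1, 0.62 for Atp5a1 and 0.54 for Atp5b, which together form the catalytic head and stalk. With the tissue sample as a block 59 members passed. Leaving out 1 library lowered the count to 15 (without brain transcriptome replicate 1 or 3, or brain translatome replicate 1) and to 14 (without kidney transcriptome replicate 2).

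**Figure D4:**
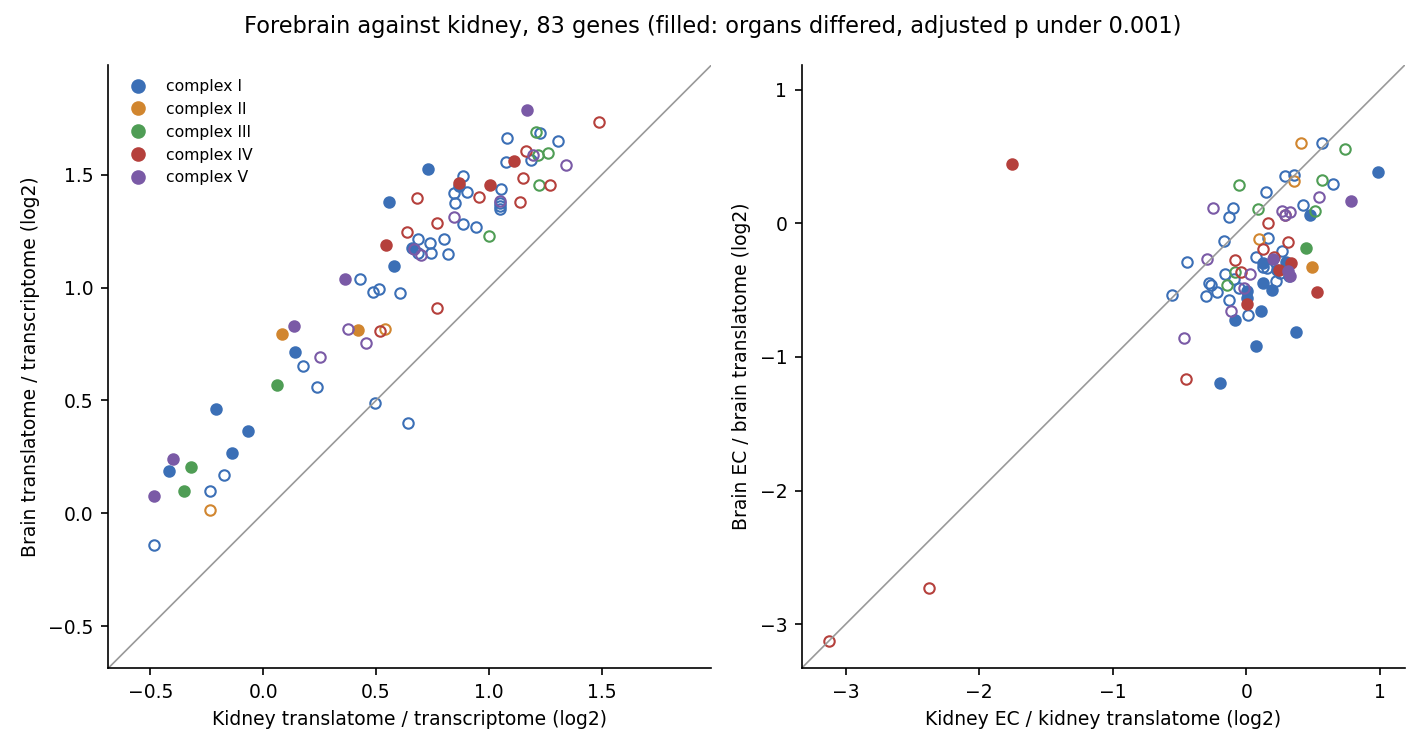
log2 fold change of the 83 members with at least 5 RPKM in some group, forebrain (y axis) against kidney (x axis), for translatome over transcriptome (left) and EC over organ translatome (right); filled points passed the test of the organ difference and the grey line marks equal values. On the left nearly all points lie above the line, with a median difference of 0.43 over all members, and on the right Cox6b2 stands alone far above it (a difference of 2.23) while Ndufa4l2 and Cox4i2 lie at the lower left.

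The organs were next compared within each RNA fraction. In total RNA 24 of 88 members were lower in forebrain than in kidney and 3 were higher, against 26.3% lower and 27.2% higher of all rows tested. The lower members were thus near the share of all rows, and the higher ones well below it. The lower ones included all 3 of the most abundant ATP synthase genes (Atp5b -0.40, Atp5a1 -0.55, Atp5g3 -0.55) and 3 of the 4 complex II genes. The higher ones were no subunits of a complex: Ndufaf3 (1.12), Ndufaf5 (0.51) and Cox7a2l (0.29). In ribosome-bound RNA 40 of 87 members were higher in forebrain and 4 lower, against 27.2% and 26.2% of all rows. The median log2 fold change was -0.12 in total RNA and 0.33 in ribosome-bound RNA. Relative to the mRNAs nearest in length these medians were 0.11 and 0.32, both above zero. Of those nearest mRNAs, a median of 37% were lower and 16% higher in forebrain total RNA. In ribosome-bound RNA 26% were lower and 27% higher. When only library totals were used for scaling, which shifted the median of all mRNAs by -0.18 and -0.19, 1 member was higher in forebrain in total RNA, and 18 were higher and 10 lower in ribosome-bound RNA; without brain translatome replicate 1 the ribosome-bound count was 24 higher.

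Ndufaf3, which helps to assemble the arm of complex I that docks ubiquinone, showed the widest organ difference of the higher members. It had 15.8, 16.4 and 16.0 RPKM in the brain transcriptome and 8.20, 9.06 and 7.95 RPKM in the kidney transcriptome, and 32.5, 32.0 and 32.5 RPKM against 11.0, 11.0 and 12.0 RPKM in the translatomes (log2 fold change 1.72 ± 0.08, SE, edgeR adjusted p = 4.1e-10). The groups were far apart in both fractions. Brain EC libraries had 15.4, 12.7 and 14.0 RPKM of Ndufaf3 and kidney EC libraries 9.38, 9.16 and 9.32 RPKM, a smaller organ difference of 0.64. Emx1 libraries, at 30.3, 31.5 and 31.8 RPKM, lay just below the brain translatome.

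Complex II, which also works in the citric acid cycle, showed how its 4 subunits parted. Sdhd, a membrane anchor, was the only one of the 4 called lower in forebrain in both fractions, at 48.6, 57.9 and 56.2 RPKM against 96.1, 101 and 105 RPKM in total RNA (-0.70 ± 0.06, SE, edgeR adjusted p = 1.1e-06) and 95.5, 94.1 and 91.1 RPKM against 142, 150 and 147 RPKM on ribosomes (-0.44 ± 0.05, SE). Sdhb was higher in forebrain on ribosomes (0.68 ± 0.06, SE) and did not pass in total RNA (-0.02). Sdha was lower in total RNA (-0.42) and Sdhc, the other anchor, likewise (-0.25), while neither passed on ribosomes (-0.18 and 0.13). In total RNA all 4 values were thus below zero, and on ribosomes the 4 genes had no common direction. To show what is written upstream of these genes, the 250 bases before the start of Sdha (chr13:74350241-74350490, minus strand) and of Sdhd (chr9:50603850-50604099, minus strand) are given here as RefSeq has them on GRCm38.p6, 5′ to 3′ in the direction of the gene. Capitals mark matches to the NRF1 letters (GCGC and TGCGC with 1 base between them) and the ETS letters CCGGAAG on either strand.
Sdha: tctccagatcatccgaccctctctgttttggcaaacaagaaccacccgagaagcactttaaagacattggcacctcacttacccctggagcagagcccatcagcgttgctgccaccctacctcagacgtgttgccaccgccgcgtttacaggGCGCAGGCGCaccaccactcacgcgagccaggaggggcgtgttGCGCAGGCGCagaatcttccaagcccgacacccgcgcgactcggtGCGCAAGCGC
Sdhd: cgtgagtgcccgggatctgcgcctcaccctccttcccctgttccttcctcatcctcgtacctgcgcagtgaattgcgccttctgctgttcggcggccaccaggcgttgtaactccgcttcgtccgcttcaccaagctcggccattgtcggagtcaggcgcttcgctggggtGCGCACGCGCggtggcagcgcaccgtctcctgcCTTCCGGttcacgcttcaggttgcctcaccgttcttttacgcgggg
Sdha had 3 matches to the NRF1 letters in this stretch, and Sdhd 1 to each motif.

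These letters were counted over all members with a promoter entry. NRF1 and the ETS factor GABP are known activators of nuclear respiratory genes, and YY1 is another. A window of 300 bases, 250 before and 50 after the start, was searched on both strands in the 74 members matched by gene ID. The NRF1 letters occurred in 18 of 74 windows (24.3%), against 4.78% of 27025 genes in the RefSeq table and 10.3% of the 9446 genes with an mRNA mean over 1 RPKM. The ETS letters occurred in 16 (21.6%, against 9.12% and 17.6%), and the YY1 letters ATGGCGGC in 6 (8.11%, against 2.38% and 5.05%), all of them complex I genes such as Ndufa7 and Ndufa9. The letters TATAAA occurred in 7 (9.46%, against 14.2% and 6.55%). No motif contains another, though neighbouring matches may share bases, and 35 members had at least 1 of the first 3. A match is a run of letters and says nothing of binding in these tissues.

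The endothelial translatomes were compared with the translatome of the whole organ. In brain EC 37 of 87 members were lower and 9 higher, against 21.4% and 24.8% of all rows tested, and their median lay at -0.29 log2 units. Of 88 members in kidney EC 18 were higher and 6 lower, against 16.7% and 15.0% of all rows, with a median of 0.12. Of the 100 mRNAs nearest in length to each member, a median of 37% were lower and 14% higher in brain EC. In kidney EC 9% of the nearest were higher and 23% lower. In brain EC the members' counts were thus closer to those of mRNAs of like length than to those of all rows. The members' counts rest on the scaling. Scaling by library totals in place of TMM shifted the median of all mRNAs by -0.30 in brain EC and -0.37 in kidney EC. With library totals no member was higher and 57 were lower in brain EC, and 3 were higher and 25 lower in kidney EC, where the members' median turned to -0.24. Set against the transcriptome of the organ in place of its translatome, 69 members were higher and 1 lower in brain EC and 73 and 2 in kidney EC. The share of all rows called against the transcriptome is not given here, so these counts have no background beside them. Relative to the mRNAs nearest in length, which does not depend on the scaling, the members' median was 0.14 in brain EC and 0.28 in kidney EC. Single libraries mattered as well: the 9 higher members of brain EC became 2 to 5 without any 1 of brain translatome replicates 1, 2 or 3 or of brain EC replicates 1 or 3, and the 37 lower ones became 20 without brain translatome replicate 1. In the kidney the 18 higher ones became 11 without kidney translatome replicate 3.

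Several large catalytic subunits were higher in the EC libraries. In kidney EC Atp5b had 737, 731 and 676 RPKM against 527, 541 and 529 RPKM in the kidney translatome (log2 fold change 0.78 ± 0.07, SE, edgeR adjusted p = 3.6e-06), and Uqcrc1 151, 153 and 140 RPKM against 110, 115 and 116 RPKM (0.74 ± 0.06, SE). Both stayed clear of the reference libraries on the RPKM scale too. Ndufs1 (0.56), Atp5a1 (0.54), Uqcrc2 (0.51), Sdha (0.41) and Ndufv1 (0.35) were called higher as well. This comparison and that of kidney translatome and transcriptome share the kidney translatome libraries, so the values above for these genes are not independent of these. For Sdha and Ndufv1 the levels hardly moved in RPKM, at 99.2 ± 2.26 against 95.6 ± 3.65 RPKM and 59.2 ± 2.31 against 59.2 ± 1.09 RPKM (SD, n = 3), and with library totals the change of Sdha was 0.04 log2 units. The higher members of brain EC were led by Sdha (0.60), Ndufs1 (0.60) and Uqcrc1 (0.56), with Sdha at 96.4, 78.5 and 97.5 RPKM against 81.3, 71.5 and 66.9 RPKM, where the groups overlapped. Cox7c, a small complex IV subunit, fell furthest among the subunits other than Cox4i2 in brain EC (-1.16 ± 0.17, SE), from 22.5, 14.7 and 17.1 RPKM to 7.61, 5.98 and 6.28 RPKM. Of the 50-base stretches of Cox7c 53.0% also occur in transcripts of other genes, so its counts are uncertain.

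Ndufa8, a complex I subunit of the intermembrane space with paired cysteines, rose most in kidney EC. Its level was 216, 237 and 196 RPKM there against 131, 149 and 139 RPKM in the kidney translatome (0.98 ± 0.07, SE, edgeR adjusted p = 7.1e-07), and with library totals the log2 fold change was 0.62. In brain EC it was 173, 178 and 166 RPKM against 174, 156 and 154 RPKM, an overlap in RPKM beside a log2 fold change of 0.39. The ratio of EC to organ thus differed between organs for Ndufa8 by -0.57 ± 0.10 (SE, edgeR adjusted p = 0.00021). In the same test 10 of 10 endothelial markers were called higher in the brain. Their median log2 fold change over the organ translatome was 4.48 in brain EC and 3.01 in kidney EC. The part of this unequal enrichment in the organ differences of the members was not tested.

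Of the 7 Ndufaf genes, the assembly factors of complex I, 5 were lower in brain EC, against the 21.4% of all rows given above, among them Ndufaf2 (-1.19 ± 0.10, SE), Ndufaf3 (-0.91) and Ndufaf5 (-0.82). Ndufaf6 (-0.37) and Ndufaf1 (0.04) did not pass. Of the 28 tested assembly factors outside the rule, 7 were lower and 3 higher in brain EC. Ndufaf2 fell from 66.3, 59.1 and 58.1 RPKM in the brain translatome to 24.6, 18.9 and 22.3 RPKM in brain EC, below the brain transcriptome at 25.7, 28.9 and 26.0 RPKM. In kidney EC edgeR called none of the 7, whose values ran from -0.20 to 0.37, and 2 were higher and 0 lower at an unadjusted p under 0.05. The interaction of organ and cell population, fitted on the 12 translatome libraries of both organs and their EC, was lower in the brain for 25 of 88 members and higher for 1, against 8.6% and 16.5% of all rows tested. It was -1.16 ± 0.15 (SE) for Ndufaf5, -0.97 ± 0.17 for Ndufaf2 and -0.96 ± 0.12 for Ndufaf3. For Cox5a, a complex IV subunit on the matrix side, it was -1.01 ± 0.09 (SE, edgeR adjusted p = 6.4e-08), though 32.0% of its 50-base stretches also occur in transcripts of other genes. Cox5a fell in brain EC from 258, 284 and 279 RPKM to 159, 158 and 154 RPKM and had 197, 223 and 205 RPKM in kidney EC against 176, 184 and 194 RPKM in the kidney. The single member in the other direction was Cox6b2 (2.23 ± 0.23, SE).

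Brain and kidney EC were also set against each other. Of 88 members 5 were higher in brain EC and 15 lower, against 20.1% and 16.9% of all rows tested. Their median was -0.17 log2 units, or -0.034 from the mRNAs nearest in length. Of the members called, Atp5g1 was the lowest in brain EC (5.97, 5.78 and 4.63 RPKM against 11.5, 13.7 and 11.9 RPKM, -1.13 ± 0.13, SE); it shares most of its stretches with other transcripts, so its counts are uncertain. Atp5b (-0.55) and Sdhd (-0.57) were lower in brain EC as they were in forebrain total RNA, and Ndufv1 (0.50) and Ndufaf3 (0.64) higher. The count of lower members was 5 to 8 without kidney EC replicate 1 or brain EC replicate 1 or 3, and that of higher members 2 or 3 without any 1 library.

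In the Emx1 group the members were nearly as in the whole forebrain. The Emx1 lineage is itself an abundant part of that reference. The study puts its maximum theoretical fold change at only around 2, which limits how far any gene can rise here. Of 88 members 2 were higher and 7 lower, against 9.2% and 12.8% of all rows tested. Their median was -0.02 log2 units, or -0.0052 from the mRNAs nearest in length. Uqcrc2 had 136, 140 and 144 RPKM against 124, 121 and 117 RPKM (0.27 ± 0.04, SE), and Ndufc2, of the membrane arm of complex I, rose by 0.31. The lower ones included 4 small differences, in Cox8a (-0.38), Ndufb8 (-0.28), Cox6a1 (-0.25) and Ndufc1 (-0.24), and 3 isoform genes with larger ones. Without brain translatome replicate 1 the lower count was 4, and without any 1 Emx1 library it was 3.

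The isoform genes showed the widest range of the set. Ndufa4l2, a paralogue of the complex IV subunit Ndufa4 that is induced in low oxygen and is a known pericyte gene, had 13.2, 13.8 and 16.6 RPKM in the brain translatome. It had 1.89, 1.27 and 0.88 RPKM in brain EC and 0.705, 0.745 and 0.751 RPKM in the Emx1 group. The log2 fold changes were -3.13 ± 0.21 and -4.25 ± 0.14 (SE, edgeR adjusted p = 2.3e-08 and 6.7e-12). In the kidney it went from 17.3, 21.2 and 21.6 RPKM to 1.89, 1.35 and 2.07 RPKM in EC (-3.13 ± 0.17, SE). Its partner Ndufa4 moved far less over the same groups, at 395 ± 17.6 RPKM in the brain translatome, 325 ± 0.756 in brain EC and 437 ± 16.0 in the Emx1 group (SD, n = 3). Cox4i2, the hypoxia-linked form of subunit IV, behaved likewise at a lower level: 2.53, 2.93 and 2.94 RPKM in the brain translatome against 0.399, 0.258 and 0.359 RPKM in brain EC, and 6.13, 8.16 and 8.25 RPKM in the kidney translatome against 1.33, 0.840 and 1.17 RPKM in kidney EC. It made up 1.36% of the RPKM of Cox4i1 and Cox4i2 in the kidney translatome and 0.241% in kidney EC. In the brain it made up 0.398% in the translatome and 0.0673% in EC. The 6 markers of mural cells summed to 42.3 to 57.8 RPKM in the brain translatome, 22.2 to 26.9 in brain EC, where 5 of 6 were lower and Cspg4 was higher, and 5.95 to 6.51 in the Emx1 group, where 6 of 6 were lower. In the kidney they summed to 138 to 153 RPKM in the translatome and 113 to 121 in EC, with 4 of 6 lower and 2 higher. The part of mural cells in these values was not tested.

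**Figure D5:**
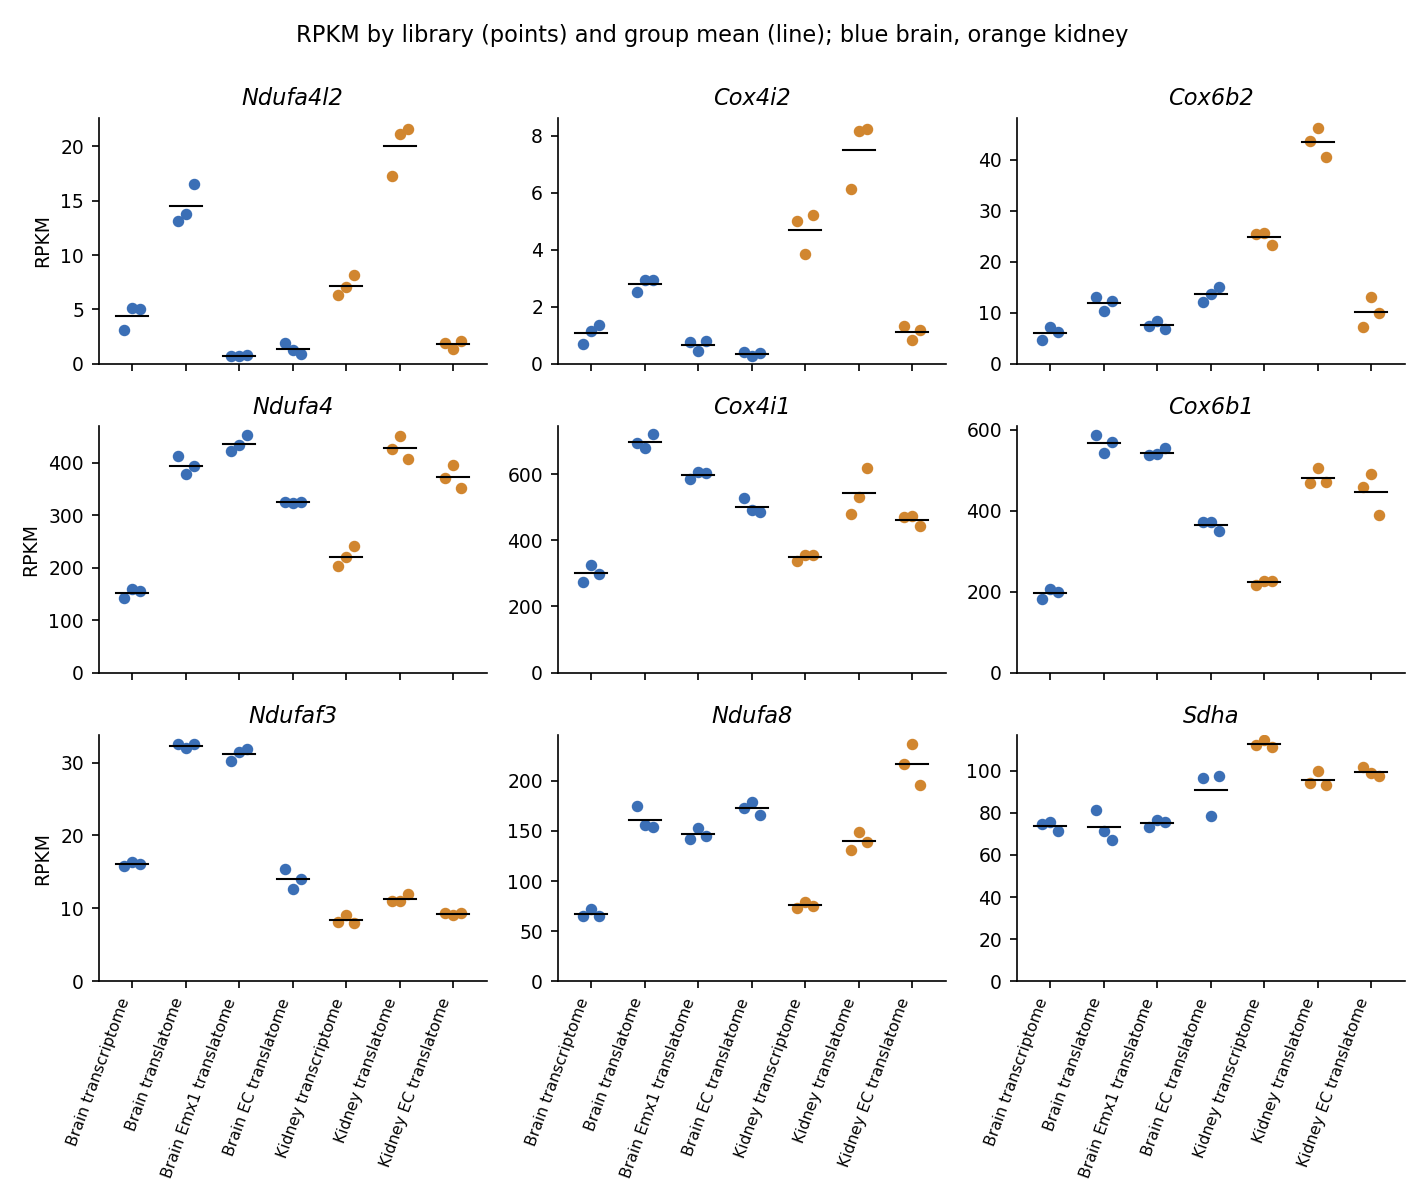
RPKM of Ndufa4l2, Cox4i2, Cox6b2 and their partner genes Ndufa4, Cox4i1 and Cox6b1, and of Ndufaf3, Ndufa8 and Sdha, in the 7 groups; points are the 3 libraries and lines the means (blue for brain, orange for kidney), each panel with its own axis from 0. Ndufa4l2 is highest in the kidney translatome (20.0 RPKM) and lowest in the Emx1 group (0.734 RPKM), while Cox6b2 stands out in the kidney (24.8 and 43.5 RPKM).

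Cox6b2, known as the testis form of subunit VIb, had another pattern. It was higher in the kidney, with 25.5, 25.6 and 23.2 RPKM in the kidney transcriptome and 4.70, 7.19 and 6.22 RPKM in the brain transcriptome (log2 fold change brain against kidney -1.79 ± 0.10, SE, edgeR adjusted p = 3.8e-08). On ribosomes it had 43.7, 46.2 and 40.6 RPKM in the kidney and 13.0, 10.4 and 12.3 RPKM in the brain. In kidney EC it fell to 7.17, 13.1 and 9.95 RPKM (-1.76 ± 0.18, SE), whereas in brain EC, at 12.1, 13.6 and 15.0 RPKM, it overlapped the whole brain. It made up 10.0% of the RPKM of Cox6b1 and Cox6b2 in the kidney transcriptome, 8.29% in the kidney translatome, 2.21% in kidney EC and 1.36% in the Emx1 group. Its RPKM depends in part on how the files weight its isoforms. The common form Cox6b1 was at 223 ± 5.94 RPKM in the kidney transcriptome and 196 ± 12.0 in the brain transcriptome (SD, n = 3), with a log2 fold change of 0.00. The 250 bases before the start of this pair, from RefSeq on GRCm38.p6, are shown because one is broadly expressed and the other restricted: Cox6b1 at chr7:30626115-30626364 and Cox6b2 at chr7:4753095-4753344, both on the minus strand, with ETS letters in capitals as above.
Cox6b1: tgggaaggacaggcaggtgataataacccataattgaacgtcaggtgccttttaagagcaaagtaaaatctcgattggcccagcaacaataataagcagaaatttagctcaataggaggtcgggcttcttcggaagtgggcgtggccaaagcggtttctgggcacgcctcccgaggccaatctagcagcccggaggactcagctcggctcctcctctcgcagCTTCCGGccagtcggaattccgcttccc
Cox6b2: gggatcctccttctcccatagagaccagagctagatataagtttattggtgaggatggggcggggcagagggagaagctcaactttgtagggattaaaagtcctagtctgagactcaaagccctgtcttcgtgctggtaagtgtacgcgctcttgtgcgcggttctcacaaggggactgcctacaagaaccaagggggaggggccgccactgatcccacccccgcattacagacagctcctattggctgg
Cox6b1 had 1 match to the ETS letters and Cox6b2 none to the ETS or NRF1 letters in these windows.

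Other isoform families kept the same leading gene in all 7 groups. Atp5g3 supplied 97.3% to 98.8% of the RPKM of the 3 genes for subunit c of ATP synthase, which all encode the same mature protein, in all 7 groups. None of the 50-base stretches of Atp5g3 occur in transcripts of other genes, against 66.0% for Atp5g1 and 87.4% for Atp5g2, so the split between the 3 genes is uncertain. Cox7a1, the heart and muscle form of subunit VIIa, took a mean of at most 1.39% in any group beside Cox7a2 and Cox7a2l. Cox7a2 took 59.8% ± 1.1 of that family in the brain transcriptome and 70.5% ± 0.66 in the brain translatome, and 65.0% and 74.1% in the kidney (SD, n = 3). The muscle forms Cox6a2 and Cox8b had 33 and 3 reads over all 21 libraries, the testis forms Cox7b2 and Cox8c 38 and 0. Of the Cox6a2 reads 13 were in kidney EC replicate 2, beside 1 in each other kidney EC library, and the muscle markers summed to 48.9 RPKM in that library and to 14.1 and 20.5 RPKM in the other two; their part was not tested. Ndufs5 had 1 read, but the files count it over 25 bases only, so its level was not measured.

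Genes of neighbouring pathways were counted in the same fits. Of 16 genes of pyruvate dehydrogenase and the citric acid cycle, which feed electrons to the chain, 3 were higher and 2 lower on ribosomes in the brain, and 11 were lower in the kidney, against 15.8% of all rows, with a median of -0.38 there (Dlst -0.55). In kidney EC 13 of 16 were higher (median 0.54, Idh3a 0.75) and in brain EC 7 (Suclg2 1.46, Ogdh 0.94), against 16.7% and 24.8% of all rows. Scaling by library totals, which shifts all mRNAs by -0.37 in kidney EC and -0.30 in brain EC, would take away most of the median in the kidney. Of 28 tested assembly factors outside the rule, 17 were higher and 1 lower on ribosomes in the brain and 12 and 1 in the kidney, against 18.6% and 14.9% of all rows higher. The short copper chaperone Cox17 led in both (1.64 and 1.41), and Acad9 was the one that fell (-0.46 and -0.67). Of 13 regulators of mitochondrial biogenesis, 3 were higher and 4 lower on ribosomes in the brain and 2 and 3 in the kidney. In brain EC 6 of them were higher, with the coactivator Ppargc1b at 2.02 and Gabpa, the DNA-binding part of GABP, at 1.26, and in kidney EC 6 were higher, with Ppargc1b at 1.40, and Ppargc1a was lower at -1.14. Cycs and Cyct encode cytochrome c, and Cyc1 encodes a complex III subunit that the symbol rule does not reach. Of these genes, Cyc1 alone was called on brain ribosomes (0.61) and in kidney EC (0.65).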

How the data were processed

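Reads per gene and RPKM were taken from the deposited table of each of 21 libraries. Per the labels and the methods of the study, the authors prepared the libraries with TruSeq RNA v2, mapped reads to GRCm38 (mm10) with RUM and summarised them on UCSC refGene genes with rpkmforgenes. The deposited read counts are whole numbers that the authors did not normalize, and the deposited RPKM values are these counts scaled by the authors for gene length and library size. How reads that fit several genes were treated is not given in the sources used here. Counted length was derived as the ratio of reads to RPKM. No row was left out and every row names a gene.

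Counts were fitted with edgeR 4.0.16 in R 4.3.3 (TMM, quasi-likelihood test) over all rows with at least 1 read in the samples of the fit, in 8 pairwise fits of 6 libraries and 2 interaction fits of 12. P-values were adjusted over all rows (Benjamini-Hochberg) and called under 0.001, as in the study's own comparisons. Each log2 fold change has an SE obtained from its size and the F statistic (size over root F). The fits were tested on simulated data with known changes, as many up as down. These data held a fixed spread and no pairing or run effect, so they say nothing of scaling or run. Members and lists were chosen with earlier results of these data known. Values are given for the members with the highest and lowest log2 fold change in each comparison and complex at a mean of at least 5 RPKM, the isoform families, the 4 Sdh genes, the 3 members furthest above and below their length group, and the leading genes of each pathway list (1 gene of these lists is not reported here); others were named after their values were seen. Length groups held mRNAs over 1 RPKM in the reference.

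Same-numbered transcriptome and translatome libraries came from the same tissue, and their deviations from the group means correlated at 0.482 to 0.692 in the brain and 0.727 to 0.740 in the kidney. Brain and kidney EC libraries of the same number correlated at 0.457, 0.197 and 0.191. Other groups share a number only. Whether libraries of one group came from separate litters is not stated, so p-values measure the spread between these samples. Depth (21760652 to 79231692 reads) enters through the SD of 3 libraries and the SE. The alternatives were DESeq2 1.42.0, other scalings, read filters, thresholds, length groups and references, the block, one fit of all libraries and leaving out each library; 2 more were added after the data were seen.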

Additional observations from a re-analysis of the deposited data

Results flagged for a closer look

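For the members named here and for the counts, the effect differed between forebrain and kidney by an interaction test in one fit of 12 libraries (edgeR quasi-likelihood, Benjamini-Hochberg adjusted p under 0.001). The ratio of translatome to transcriptome was higher in the forebrain for 24 members. On the log2 scale the difference was 0.81 for Ndufv3, 0.78 for Ndufb2, 0.70 for Sdhb, 0.68 for Atp5c1, 0.62 for Atp5a1 and 0.51 for Uqcrc2. All 6 ratios were higher in the forebrain, and the 0.62 of Atp5a1 joined a kidney value of -0.40 and a forebrain value of 0.24.

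The ratio of EC to whole-organ translatome was lower in the forebrain for 25 members and higher for 1. It was lower by -1.16 for Ndufaf5, -1.01 for Cox5a, -0.97 for Ndufaf2, -0.79 for Sdhb, -0.69 for Atp5o and -0.60 for Uqcrfs1, the Rieske protein of complex III. The member in the other direction was Cox6b2, at 2.23. EC and organ libraries were sequenced in different runs in both organs, and the run and the cell population cannot be told apart. Of the 50-base stretches of Atp5o 50.3%, of Ndufb2 33.5% and of Cox5a 32.0% also occur in transcripts of other genes, so these counts are uncertain. Forebrain and kidney libraries of the same RNA fraction shared no run, and within a fraction the run and the organ cannot be told apart.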

How the results depend on the processing

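RLE size factors and a minimum of 10 reads in 3 samples left each count of members within 1.5 times its value. With library totals in place of TMM, 1 member was higher in forebrain total RNA, 18 were higher and 10 lower in forebrain ribosome-bound RNA, 0 higher and 57 lower in brain EC, 3 higher and 25 lower in kidney EC, and 13 lower in the Emx1 group. The median of kidney EC then turned to -0.24, and of the members named by rule Cox6a1 (-0.032) and Sdhd (-0.016) changed sign in kidney EC. With the transcriptome as the reference, 69 members were higher and 1 lower in brain EC (median 0.87), 73 and 2 in kidney EC, and 76 and 1 in the Emx1 group. No share of all rows is given beside these counts. Most members were also higher in the organ translatomes than in the transcriptomes, and the part of this in the counts was not tested.

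DESeq2 called 6 members higher in forebrain total RNA, 12 lower in the Emx1 group, 8 higher and 25 lower in brain against kidney EC, 47 in the organ interaction of translatome and transcriptome and 40 lower in that of EC and organ. With the replicate number as a block, 11 members were lower in the kidney translatome, 59 passed in the organ interaction of translatome and transcriptome, and the Emx1 group, which shares a number only, had 1 higher and 3 lower. The block moved no other count of members by over 1.5 times. It added calls for Cox4i2 (0.67), Atp5g1 (0.65) and Atp5g2 (-1.23) in the kidney and Cox7b (-0.47) between EC. One fit of all libraries called 5 members higher in forebrain total RNA, 1 in the Emx1 group, 14 in brain against kidney EC and 2 in the organ interaction of EC.

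At an adjusted p under 0.05, 1 member was lower in the brain translatome, 10 were higher and 38 lower in forebrain total RNA, 9 lower in forebrain ribosome-bound RNA, 32 higher and 12 lower in kidney EC, 8 and 22 in the Emx1 group, 11 and 37 in brain against kidney EC, 64 and 1 in the organ interaction of translatome and transcriptome, and 5 and 46 in that of EC. Of all rows tested at this threshold, 28.1% were lower in the brain translatome and 34.4% in forebrain ribosome-bound RNA. In forebrain total RNA 35.0% were higher and 34.9% lower, in kidney EC 27.6% and 27.9%, and in the Emx1 group 22.5% and 22.6%. In brain against kidney EC the shares were 30.5% and 29.1%, and in the organ interaction of EC 27.0% and 16.1%. That of translatome and transcriptome has no share beside it here. With subunits only, 0 members were higher in forebrain total RNA. The 59 members that share under 10% of their 50-base stretches with other transcripts were also counted alone, a choice made after the data were seen. Of these, 46 were higher in the brain translatome, 36 in the kidney translatome, 24 in forebrain ribosome-bound RNA and 1 in the Emx1 group. In brain EC against kidney EC 3 were higher. Against the brain translatome, 9 were higher and 23 lower in brain EC. Fewer members were counted here.

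Leaving out each library in turn gave 1 to 3 higher and 16 to 22 lower members in forebrain total RNA, 24 to 40 higher and 3 to 5 lower in forebrain ribosome-bound RNA, 2 to 9 higher and 20 to 36 lower in brain EC, 11 to 21 higher and 4 to 6 lower in kidney EC, 1 to 3 higher and 3 to 7 lower in the Emx1 group, 2 to 3 higher and 5 to 12 lower in brain against kidney EC, 14 to 28 in the organ interaction of translatome and transcriptome, and 1 to 2 higher and 19 to 25 lower in that of EC. For the translatome against the transcriptome it gave 71 to 73 higher members in the brain, and 55 to 60 higher and 5 to 6 lower in the kidney. Where a count moved and nothing above names a reason, the cause was not tested. With 20 length groups the members lay 0.31 above their group in the brain and 0.13 in the kidney, and with the nearest mRNAs 0.25 and 0.045.

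The 3 libraries of each group limit the precision, and length, run and sequence shared between genes remain beside these results.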
